A study of Mus musculus with 8 samples.

Results

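Delayed rectifier, M-type and calcium-gated potassium channels were followed through 10 genes, Kcna1, Kcna2, Kcnc1, Kcnc2, Kcnq3, Kcnq5, Kcnn2, Kcnn3, Kcnma1 and Kcnh3. They were chosen by gene symbol, and every probe set that the platform annotation assigns to 1 of these symbols alone was taken. That gave 29 of 45037 probe sets, and 10 of 18193 genes when each gene was represented by its brightest probe set. Expression was measured in the striatum of 8 C57BL/6 X CBA F1 hybrid mice aged 22 months. The 4 CHL2 mutants carried 150 CAG repeats from exon 1 of the human Huntington's disease gene, knocked in to the mouse's own gene on both copies. Of these, mice 141, 153 and 154 were female and mouse 191 was male. The 4 wild-type mice of the same age were mouse 161, a female, and mice 170, 180 and 200, which were male. The repeat sits in the endogenous gene, so no transgene promoter limits it to a cell type, and no treatment is named in the labels. The comparison of the groups asks which of these channel transcripts differ in old mice with the expanded repeat.

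Potassium channels let positive charge out of a neuron and so set how readily it fires. Kv1 channels (Kcna genes) open near the firing threshold and sit largely on axons, Kv3 channels (Kcnc genes) close fast and serve neurons that fire at high rates, and KCNQ channels carry the M current, which muscarinic receptors turn down. SK channels (Kcnn genes) open when calcium binds their calmodulin, BK channels (Kcnma1) open with calcium and voltage together, and Kcnh3 encodes a channel of the ELK family that is found mainly in forebrain neurons. In medium spiny neurons, the output neurons of the striatum, channels of these kinds hold the cell back from firing until it receives strong input.

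On the brightest probe set of each gene, 4 members were lower in mutant striatum. These were both M-type subunits Kcnq5 and Kcnq3, the Kv1 subunit Kcna1 and the ELK channel Kcnh3. Kcnq5 was 1.83-fold lower, Kcnh3 1.72-fold, Kcna1 1.47-fold and Kcnq3 1.29-fold. For Kcnh3, the probe set designed from the reference transcript had a log2 change of -0.10 and did not pass. The other 6 genes did not pass the test, and no member rose. These 4 falls among 10 genes compare with 6.01% of all genes tested that fell at the same threshold, 12.4% that changed in either direction and 6.4% that rose. In the fit without the dimmer genes, 1137 of 9096 genes fell and 1403 rose, and of 9 members 4 fell and 1 (Kcnc1) rose. The median log2 change of the 10 genes was -0.14, against 0.0052 over all genes tested. Without mutant 191 the fit called 2 members, Kcnq5 and Kcnh3, and 702 of 18193 genes, against 2258 genes with all mice. With the sex term also left out, it called the same 4 members and 2497 genes. Groups did not overlap for the same 4 genes, against 20.7% of all genes. Over the 29 probe sets 7 fell and 0 rose at an adjusted p under 0.05 in limma, against 3.44% and 3.26% of all probe sets (6.7% in either direction). That count was 4 without mutant 191 and also 4 without wild-type 161, the lone male mutant and the lone female wild type. At gene level, the fit without wild-type 161 called 864 of 18193 genes. Counted by probe set, 12 of the 29 did not overlap between the groups, against 15.4% of all probe sets.

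**Figure D1:**
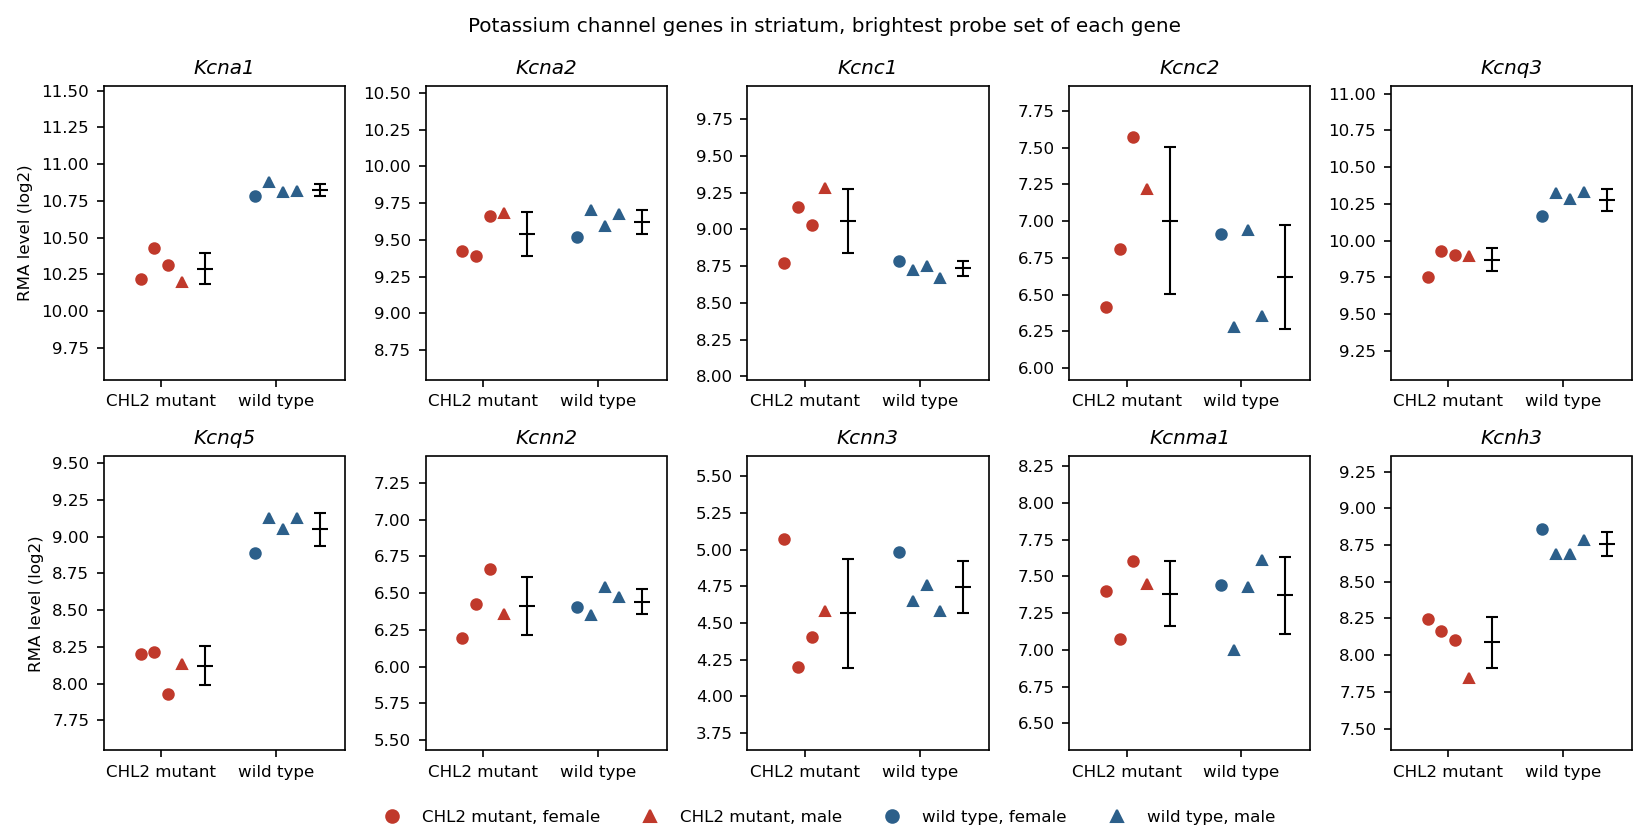
Level of each gene on the log2 RMA scale (brightest probe set) in each mouse, CHL2 mutants left and wild-type mice right, circles for females and triangles for males, with the mean ± SD (n = 4) beside each group. Every panel spans the same log2 range, and the groups stand apart for Kcna1, Kcnq3, Kcnq5 and Kcnh3.

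All 8 arrays had medians between 4.95 and 4.98 on the log2 scale, and pairs of arrays correlated at r = 0.990 to 0.996 within a group and 0.983 to 0.991 between groups. Gapdh control probe sets for both transcript ends differed (3' minus 5') by 0.32 to 0.43 in the mutants and 0.32 to 1.37 in the wild-type mice, with the value of 1.37 in mouse 170 alone. That mouse also had the highest difference for beta-actin, at 2.65 against 1.23 to 1.51 in the other 7 mice. Its values are named below where they touch a channel. Medium spiny neuron markers were present in every mouse, and Ppp1r1b, the gene for the dopamine-regulated phosphoprotein DARPP-32, lay at 11.06 ± 0.13 in mutant and 12.12 ± 0.12 in wild-type mice (SD, n = 4 each).

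Promoter sequence is given for the member with the largest fall, Kcnq5, and for Kcnc1, the member whose log2 change was highest. RefSeq start sites on GRCm38.p6 were matched by symbol for 6 of the 10 genes, and the 250 bases before each start are shown 5' to 3' on the gene's own strand. Capitals mark matches to 3 motifs searched on both strands. The cyclic AMP response element half-site was searched as TGACG. For the GC box, which Sp factors bind, the letters were GGGCGG. The TATA box, near which transcription often starts, was spelled TATAAA. None of the matches shown overlap.
Kcnq5 first start, chr1:21962651-21962900, minus strand: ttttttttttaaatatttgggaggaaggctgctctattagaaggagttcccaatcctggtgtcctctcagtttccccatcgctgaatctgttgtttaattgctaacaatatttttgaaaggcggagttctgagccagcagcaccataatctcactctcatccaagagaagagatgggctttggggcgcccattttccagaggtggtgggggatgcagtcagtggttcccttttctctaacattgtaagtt
Kcnq5 other start, chr1:21961943-21962192, minus strand: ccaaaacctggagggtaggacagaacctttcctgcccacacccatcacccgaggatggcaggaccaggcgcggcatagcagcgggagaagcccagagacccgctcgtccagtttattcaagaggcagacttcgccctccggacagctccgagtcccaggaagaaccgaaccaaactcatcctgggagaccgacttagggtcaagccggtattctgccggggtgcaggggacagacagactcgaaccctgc
Kcnc1, chr7:46396218-46396467, plus strand: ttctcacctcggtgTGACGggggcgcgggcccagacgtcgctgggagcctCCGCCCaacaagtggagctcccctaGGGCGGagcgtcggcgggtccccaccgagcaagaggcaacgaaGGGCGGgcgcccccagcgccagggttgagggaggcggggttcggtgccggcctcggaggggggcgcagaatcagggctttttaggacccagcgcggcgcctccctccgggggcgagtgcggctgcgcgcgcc
Neither Kcnq5 window held any of the 3 motifs, and that of Kcnc1 held 1 half-site and 3 GC boxes. Of 32851 such windows in the table, 17.8% held the half-site, 32.7% the GC box and 12.4% the TATA box. These matches describe the letters of the windows alone.

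Kcnq5 encodes a subunit of M-type channels, and it fell in the mutants on 2 of its 3 probe sets. Its brightest probe set read 8.20, 8.22, 7.93 and 8.13 on the log2 scale in mutants 141, 153, 154 and 191, against 8.89, 9.13, 9.05 and 9.13 in wild-type mice 161, 170, 180 and 200. Every mutant lay below every wild-type mouse. The log2 change was -0.87 (SE 0.10, limma adjusted p = 0.000379). Log2 changes here and below come from the fit with sex as a term unless stated. Means and single values are not adjusted for sex, so a gap between means can differ from the log2 change. A second probe set, 1427426_at, had a log2 change of -0.95 (SE 0.11, adjusted p = 0.000984 over all probe sets), at 6.61 ± 0.25 in mutant mice, against 7.73 ± 0.16 in wild-type mice (SD, n = 4 each). The third, 1441071_at, had a log2 change of -0.79 (SE 0.24, adjusted p = 0.0868), and its groups overlapped. In that probe set wild-type mouse 170 read 7.32 while its 3 group mates read 8.13 to 8.21. It was also the mouse with the high 3' minus 5' differences, whose part in this value was not tested.

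Kcnq3, the usual partner of other KCNQ subunits in M-type channels, fell too. It read 9.75, 9.93, 9.90 and 9.89 in mutants 141, 153, 154 and 191, against 10.17, 10.32, 10.28 and 10.33 in wild-type mice 161, 170, 180 and 200. The mutants lay close together, all below the wild-type mice. The log2 change was -0.36 (SE 0.08, adjusted p = 0.0166), and the call was lost without mutant 191 (log2 change -0.31, adjusted p = 0.210) and without wild-type 161 (log2 change -0.42, adjusted p = 0.0879). When those fits held no sex term, the adjusted p was 0.00783 without 191 and 0.00406 without 161. The dimmer probe set, 1458421_at, gave -0.49 (SE 0.13, adjusted p = 0.0552), with groups that did not overlap.

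The M-type subunits were also set against each other. On the same array, Kcnq5 minus Kcnq3 was -1.55, -1.71, -1.97 and -1.76 log2 units in mutants 141, 153, 154 and 191, against -1.28, -1.19, -1.23 and -1.20 in wild-type mice 161, 170, 180 and 200. All mutants lay below all wild-type mice. The mean was -1.75 ± 0.17 in mutants and -1.23 ± 0.04 in wild-type mice (SD, n = 4 each), a difference of -0.52. This and 4 further within-array pairs were chosen after the values were seen, so they are given as descriptions, with no test. Their differences between the groups are not adjusted for sex. Such a difference shows unequal change of the probe sets, and the levels of different probe sets cannot be compared.

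Kcna1 and Kcna2 encode Kv1.1 and Kv1.2, which join in the same axonal channels, and Kv1.2 channels also act in medium spiny neurons. Kcna1 read 10.22, 10.43, 10.31 and 10.20 in mutants 141, 153, 154 and 191, against 10.78, 10.88, 10.81 and 10.82 in wild-type mice 161, 170, 180 and 200. The groups stood apart, with little spread among the wild-type mice. The log2 change was -0.55 (SE 0.09, adjusted p = 0.00274), and it was -0.46 without mutant 191, where the call was lost (adjusted p = 0.0779, or 0.00236 with sex also left out). Of the other 3 Kcna1 probe sets, 1437230_at fell, with a log2 change of -0.49 (adjusted p = 0.0153). For 1417416_at the log2 change was -0.42 with groups that did not overlap (adjusted p = 0.0837). All values of 1442413_at lay under 5 on the log2 scale (a linear level of 32), taken here as near background, and its log2 change was -0.044.

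Kcna2 read 9.43, 9.39, 9.66 and 9.68 in mutants 141, 153, 154 and 191, against 9.52, 9.70, 9.59 and 9.67 in wild-type mice 161, 170, 180 and 200. The groups overlapped throughout. Its log2 change was -0.0035 (SE 0.09, adjusted p = 0.988), with a 95% interval of -0.21 to 0.20. A second probe set of similar brightness, 1440759_at, gave -0.037 (interval -0.31 to 0.23), and the remaining pair lay under 5 in every mouse. On the same array, Kcna1 minus Kcna2 averaged 0.75 ± 0.22 in mutant and 1.20 ± 0.05 in wild-type mice (SD, n = 4 each), a difference of -0.45. It was lower in all 4 mutants than in any wild-type mouse, and it was -0.43 between the females and -0.66 between the males.

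Kcnh3 encodes an ELK family channel (Kv12.2) that acts below the firing threshold. Its brightest probe set, 1445805_x_at, read 8.25, 8.16, 8.10 and 7.85 in mutants 141, 153, 154 and 191, against 8.86, 8.69, 8.69 and 8.79 in wild-type mice 161, 170, 180 and 200. No mutant reached a wild-type value. The log2 change was -0.78 (SE 0.09, adjusted p = 0.000305), the lowest p of the 10 genes. Probe set 1459107_at, designed from the same expressed sequence, gave -0.79 (SE 0.09, adjusted p = 0.00109 over all probe sets), so these probe sets are not independent.

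A Kcnh3 probe set designed from the reference transcript, 1421619_at, did not follow. It averaged 7.47 ± 0.18 in mutant and 7.52 ± 0.10 in wild-type mice (SD, n = 4 each), a log2 change of -0.10 with an interval of -0.36 to 0.15. Between the brightest and this probe set the within-array difference was 0.68, 0.50, 0.78 and 0.54 in mutants 141, 153, 154 and 191, against 1.35, 1.03, 1.25 and 1.32 in wild-type mice 161, 170, 180 and 200. The difference of the means was -0.61, not adjusted for sex, and the groups did not overlap. It was -0.69 between the females and -0.66 between the males. The remaining probe set, 1431690_at, gave -0.12 (adjusted p = 0.690). Only the pair designed from 1 expressed sequence passed. With all 4 probe sets averaged, the log2 change was -0.45 and passed. That mean includes the pair from 1 expressed sequence, so it gives no independent support for a fall.

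**Figure D2:**
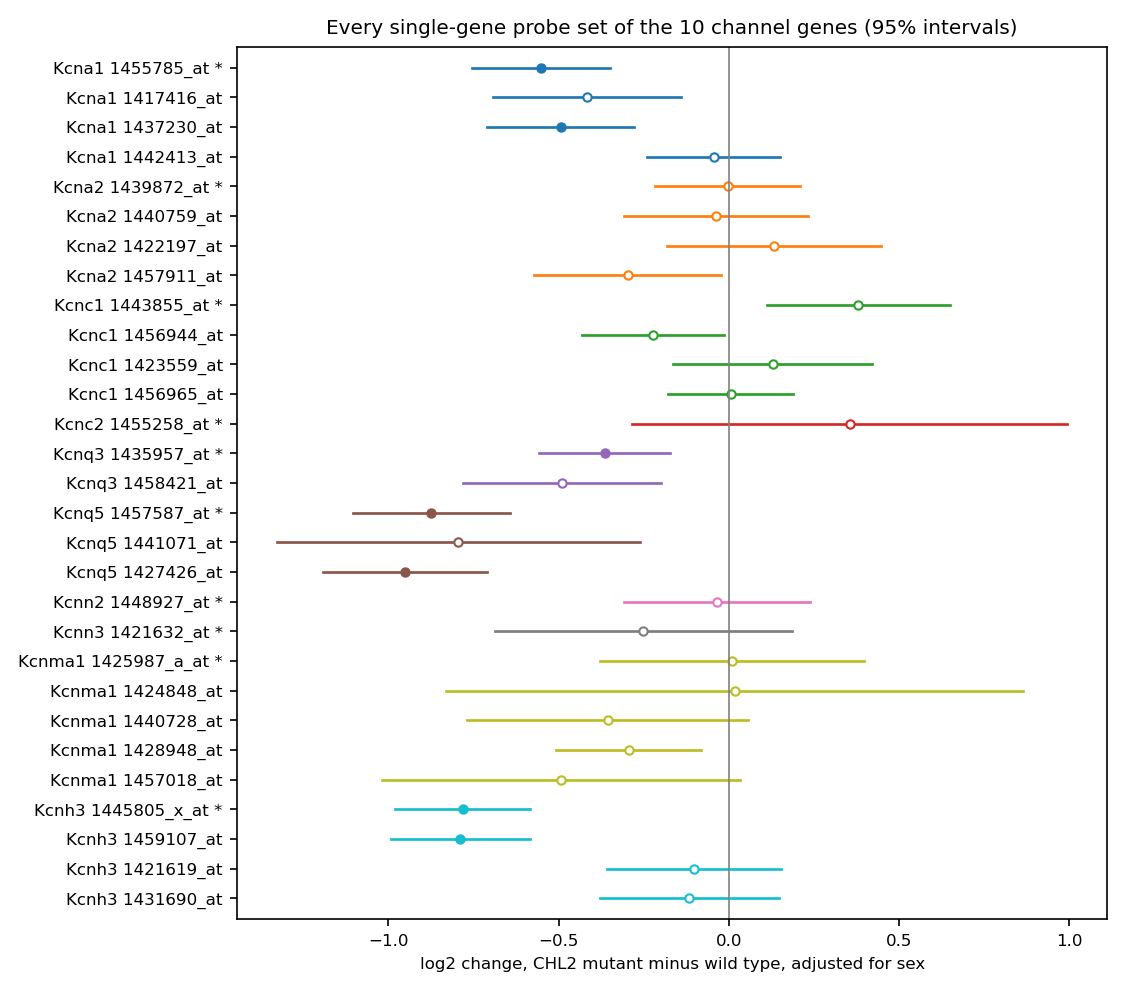
Log2 change (CHL2 mutant minus wild type, adjusted for sex) of each of the 29 probe sets with its 95% interval from the fit over all probe sets, filled where the adjusted p is under 0.05, with an asterisk on the brightest probe set of each gene and 1 colour per gene. The filled points are 2 each of Kcna1, Kcnq5 and Kcnh3 and 1 of Kcnq3, all below 0.

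Kv3 subunits are carried by fast-spiking interneurons, and neither member of that pair passed the test. Kcnc1 (Kv3.1) read 8.77, 9.15, 9.03 and 9.28 in mutants 141, 153, 154 and 191, against 8.79, 8.73, 8.75 and 8.67 in wild-type mice 161, 170, 180 and 200. Of the mutants, 3 lay above all wild-type mice and mouse 141 lay among them. The log2 change was 0.38 (SE 0.12, adjusted p = 0.0596), with an adjusted p under 0.05 without mutant 141 (0.0161), with a trended and robust prior (0.0182) and without the dimmer genes (0.0307). Without mutant 191 the log2 change was 0.20 (adjusted p = 0.555), and without wild-type 161 it was 0.56 (adjusted p = 0.0716).

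The Kcnc1 probe sets disagreed. Probe set 1456944_at had a log2 change of -0.22 (SE 0.09, adjusted p = 0.221), 1423559_at one of 0.13 and 1456965_at one of 0.0054. The within-array difference between the brightest probe set and 1456944_at was 1.31 ± 0.19 in mutant and 0.77 ± 0.07 in wild-type mice (SD, n = 4 each), without overlap. With the 4 probe sets averaged, the log2 change of Kcnc1 was 0.073 (adjusted p = 0.647).

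Kcnc2 (Kv3.2) had the widest spread of the 10 brightest probe sets. It read 6.42, 6.81, 7.57 and 7.22 in mutants 141, 153, 154 and 191, against 6.91, 6.28, 6.94 and 6.35 in wild-type mice 161, 170, 180 and 200. Both groups were widely spread and overlapped. The log2 change was 0.36 with an interval of -0.26 to 0.97 (adjusted p = 0.488), and the values were 0.018 between the females and 0.69 between the males. Without mutant 154 the log2 change was 0.22. Kcnc1 minus Kcnc2 on the same array was 2.06 ± 0.42 in mutant and 2.11 ± 0.32 in wild-type mice (SD, n = 4 each), with groups that overlapped. Parvalbumin (Pvalb), the calcium-binding protein of fast-spiking interneurons, had a log2 change of 0.14 (SE 0.24, adjusted p = 0.785), and of 6 measured fast-spiking markers 2 fell (Syt2, log2 change -0.68, and Kit, -0.30, whose groups overlapped) and 0 rose, beside 6.01% of all genes that fell.

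**Figure D3:**
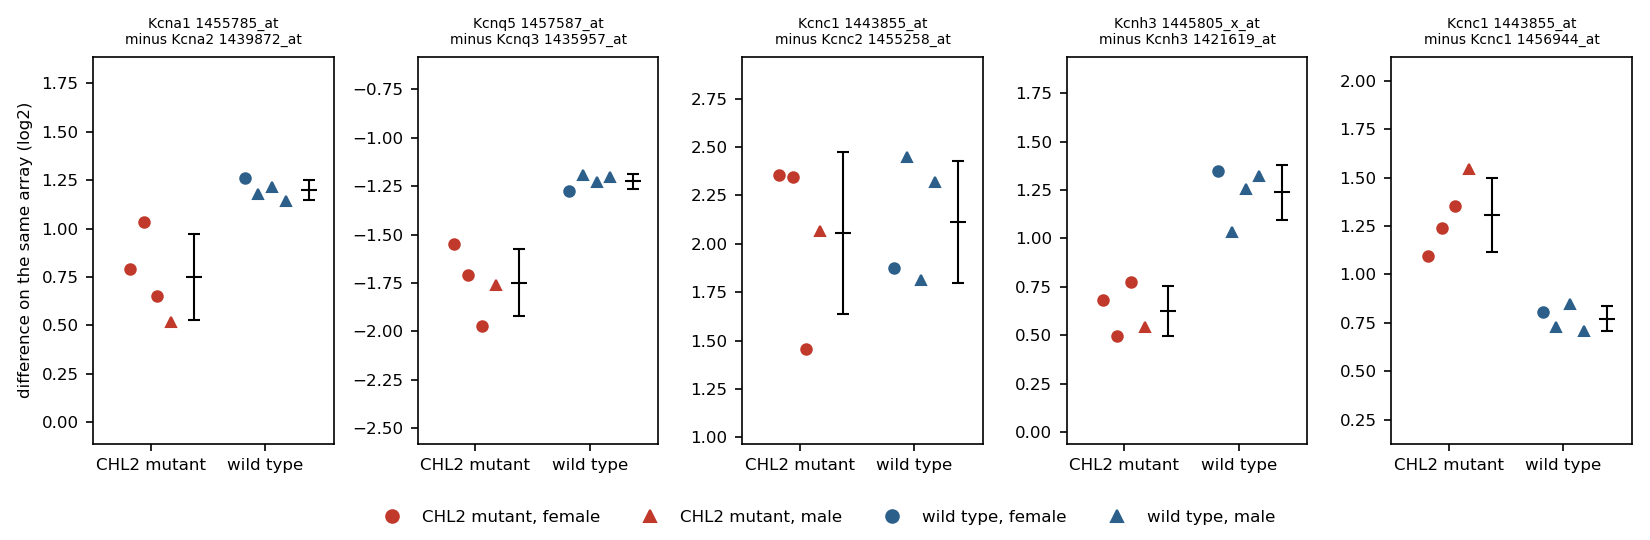
Difference between 2 probe sets on the same array (log2 units) in each mouse for the 5 pairs examined, CHL2 mutants left and wild-type mice right, with mean ± SD (n = 4). The groups are separate in every panel except Kcnc1 minus Kcnc2.

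Calcium-gated channels gave no call on any of their 7 probe sets. Kcnn2 (SK2) read 6.19, 6.43, 6.67 and 6.36 in mutants 141, 153, 154 and 191, against 6.41, 6.35, 6.54 and 6.47 in wild-type mice 161, 170, 180 and 200, fully overlapping. Its log2 change was -0.036, with an interval of -0.30 to 0.23 (adjusted p = 0.897). Kcnn3 (SK3) was the dimmest member, at 4.57 ± 0.37 in mutant and 4.74 ± 0.18 in wild-type mice (SD, n = 4 each), with 1 mutant above 5. Its log2 change of -0.25 had an interval of -0.67 to 0.17 (adjusted p = 0.467), and near background such values are compressed. It was -0.42 without mutant 191, -0.16 without mutant 153 and -0.079 without wild-type 161.

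Kcnma1, the pore subunit of BK channels, gave different answers by probe set. The brightest, 1425987_a_at, read 7.40, 7.07, 7.61 and 7.45 in mutants 141, 153, 154 and 191, against 7.44, 7.00, 7.43 and 7.61 in wild-type mice 161, 170, 180 and 200. Its log2 change was 0.011, with an interval of -0.36 to 0.38 (adjusted p = 0.981). Without wild-type 170, the lowest of its group, it was -0.077. Probe set 1424848_at read 6.06 in wild-type mouse 170 and 7.35 to 7.79 in its 3 group mates, and its log2 change was 0.017 with an interval of -0.83 to 0.87. That is again the mouse with the high 3' minus 5' differences, whose part was not tested.

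The other 3 Kcnma1 probe sets were lower in all mutants than in any wild-type mouse, yet none passed. Their log2 changes were -0.29 for 1428948_at (adjusted p = 0.111), -0.36 for 1440728_at (adjusted p = 0.350) and -0.49 for 1457018_at (adjusted p = 0.297). For 1428948_at the values were 6.65, 6.85, 6.70 and 6.81 in mutants 141, 153, 154 and 191, against 7.15, 6.96, 7.01 and 6.97 in wild-type mice 161, 170, 180 and 200. With its 5 probe sets averaged, Kcnma1 had a log2 change of -0.22. Which transcripts these probe sets read was not analysed here.

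Related subunits outside the 10 genes fell in 7 of 41 measured cases and rose in 0. Their median log2 change was -0.089, and the share of all genes that fell was 6.01%. Together with the 20 partner genes given further on, 10 fell, and 5 without mutant 191, where 410 of all 18193 genes fell. In the fit without the dimmer genes, 11 of 34 such genes fell and 2 rose, against 1137 and 1403 of 9096 genes. Of 8 other Kv1 alpha and beta subunits, 4 fell. Kcnab1, whose beta subunit speeds inactivation of Kv1 channels, was lower by 0.73 on the log2 scale, at 10.39 ± 0.08 in mutant and 11.24 ± 0.17 in wild-type mice (SD, n = 4 each, adjusted p = 0.00036). Kcna4, the Kv1 subunit with fast inactivation, had a log2 change of -0.74 (SE 0.10, adjusted p = 0.000861), and Kcna6 one of -0.41 (adjusted p = 0.00951). Kcna5 was the fourth to fall, with a log2 change of -0.71 (adjusted p = 0.0239), while Kcna3 (log2 change -0.072), Kcna7 (-0.17), Kcnab2 (0.017) and Kcnab3 (0.30, adjusted p = 0.0649) did not pass.

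Single members of the other families fell too. Kcnf1, a silent subunit that modifies Kv2 channels, had a log2 change of -0.78 (SE 0.13, adjusted p = 0.00342), Kcnh1, the ether-a-go-go channel, one of -0.53 (SE 0.09, adjusted p = 0.00329), and Kcnt1, a sodium-gated channel, one of -0.64 (SE 0.13, adjusted p = 0.0101). The groups did not overlap for these 3 genes. Closest relatives that did not pass were Kcnc4 (-0.31), Kcnq1 (-0.15), Kcnn1 (-0.027), Kcnn4 (-0.16) and the BK beta subunit genes Kcnmb1 (-0.089), Kcnmb2 (-0.023) and Kcnmb4 (-0.078). The remaining measured subunits did not pass. Kcne5 was measured under its older symbol Kcne1l.

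Genes that act on these channels were counted by role. Of 8 measured regulators of the M current 3 fell and 0 rose, beside 6.01% of all genes that fell. Akap5, a scaffold that brings kinases to KCNQ channels, was lowest, at 8.78 ± 0.11 in mutant and 9.68 ± 0.10 in wild-type mice (SD, n = 4 each, log2 change -0.86, adjusted p = 0.000326). Plcb1, a phospholipase that cleaves the lipid KCNQ channels need, fell as well (log2 change -0.58, adjusted p = 0.00429). So did Chrm1, the muscarinic receptor that turns the M current down (log2 change -0.53, adjusted p = 0.0109). On the other side of 0 lay Gnaq (log2 change 0.27, adjusted p = 0.0518), the G protein subunit through which such receptors act, and the phospholipase Plcb4 (log2 change 0.32, adjusted p = 0.101), whose groups did not overlap either. Of 12 genes that anchor or cluster Kv1 channels on axons, such as Cntnap2 (log2 change 0.15), 0 passed in either direction in limma, and the unadjusted p was under 0.05 for 4 of them. Dlg4, a scaffold of synapses and Kv1 clusters, had a log2 change of -0.065 with an SE of 0.44. It read 7.98 to 8.47 in the mutants, against 6.84 in wild-type mouse 170, the one with the high 3' minus 5' differences, and 8.61 to 8.94 in the other wild-type mice.

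**Figure D4:**
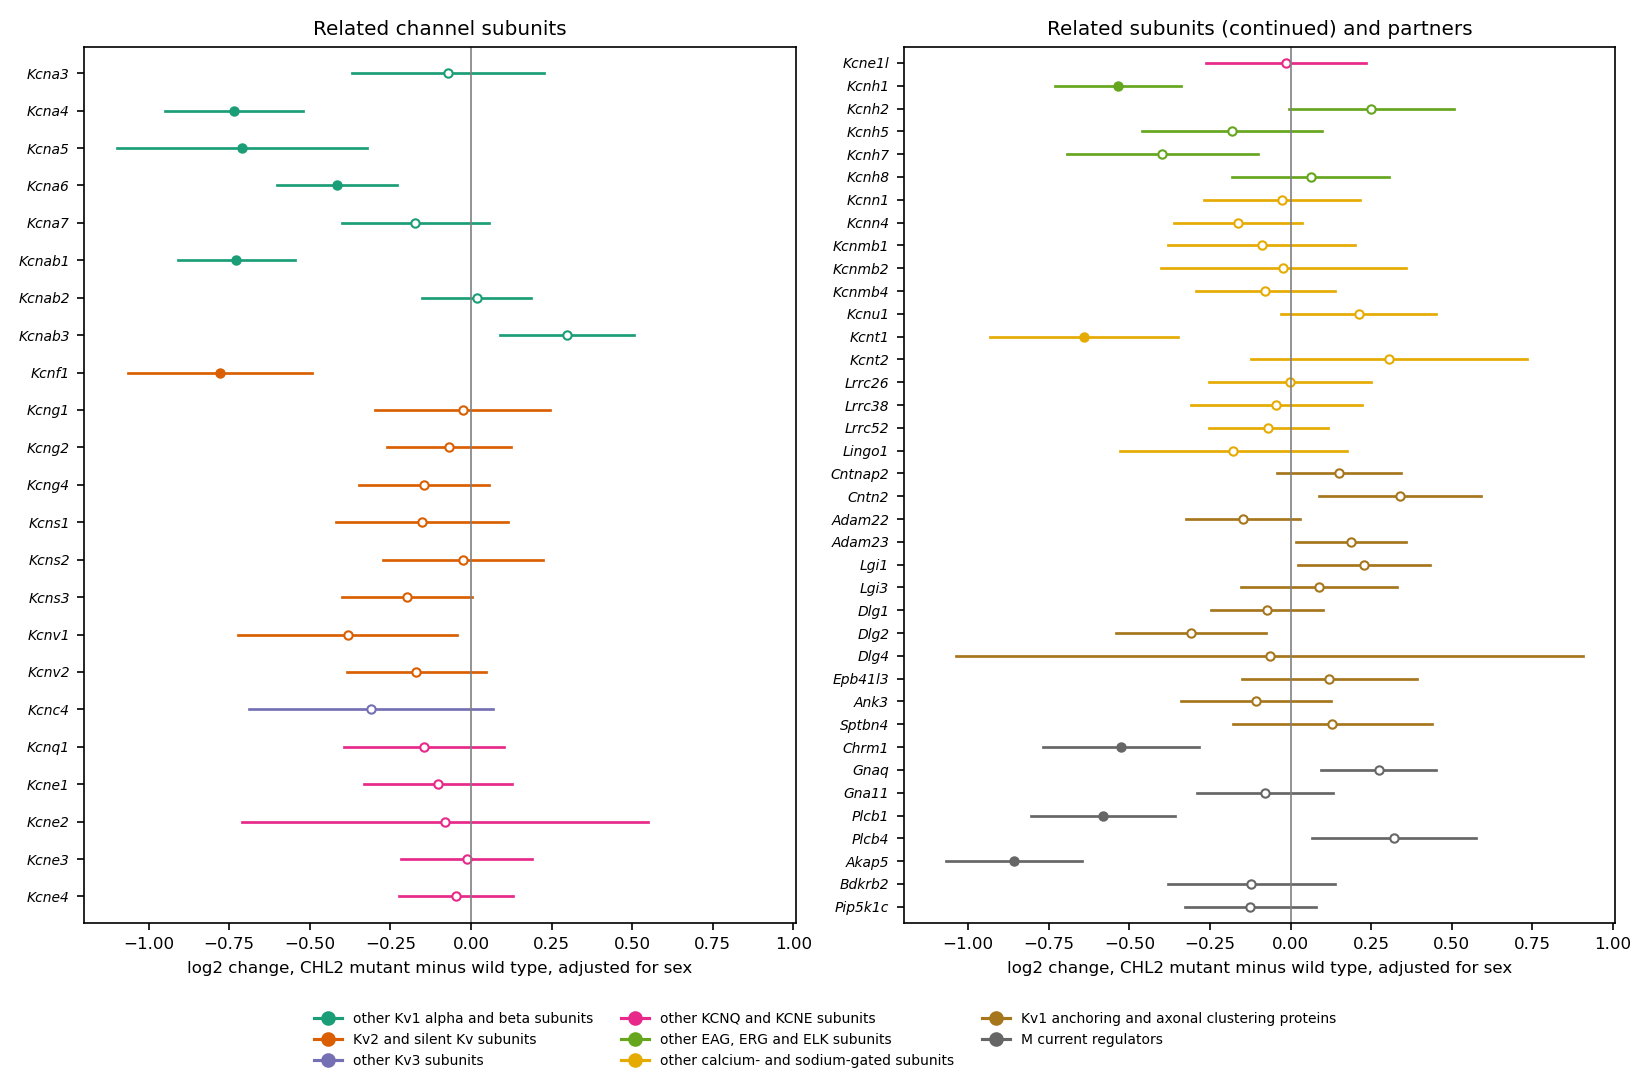
Log2 change (CHL2 mutant minus wild type, adjusted for sex) with its 95% interval for 41 related channel subunits and 20 genes that anchor Kv1 channels or regulate the M current, coloured by list and filled where the adjusted p is under 0.05. All 10 filled points lie below 0.

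Cell type markers moved beside these channels, and their part in the results was not tested. Each count of markers here stands beside 6.01% of all genes that fell and 6.4% that rose. All 15 measured medium spiny neuron markers fell, with a median log2 change of -1.24, and their summed linear level was 21265 to 24177 in the mutants and 50858 to 56668 in the wild-type mice. In bulk tissue, fewer cells of a type and less RNA per cell cannot be told apart. Of 9 cortical pyramidal markers 1 (Nrgn) fell, with sums of 6017 to 6615 in mutants and 8033 to 8713 in wild-type mice. These sums are dominated by the bright Nrgn and Camk2a, and whether their signal here came from cortical cells was not tested. The mean of the 9 genes' centred log2 values overlapped, at -0.55 to 0.44 in mutants and -0.11 to 0.43 in wild-type mice. The cortical marker Slc17a7, a vesicular glutamate transporter, ranged from 4.59 in mutant 191 to 8.03 in mutant 154, and from 6.15 to 7.88 in wild-type mice, so mutants did not share 1 level of it. Its unadjusted means were 6.46 in mutant and 6.98 in wild-type mice. Adjusted for sex, its log2 change was -1.45 (SE 0.44, limma adjusted p = 0.0574), with a fitted female minus male difference of 1.85. The log2 difference was -0.81 between the females and -2.09 between the males, and each rests on 1 mouse on 1 side. Of 9 oligodendrocyte markers 1 rose and 1 fell, with Mbp at a log2 change of -0.13 (adjusted p = 0.415). Of 9 astrocyte markers 2 rose, among them Gfap (log2 change 0.48, adjusted p = 0.0341), and of 10 microglial markers 0 passed, with Aif1 at -0.36 (adjusted p = 0.0509). Sums for these 3 lists overlapped between the groups. Of 9 endothelial and mural markers 0 passed, with sums of 1532 to 1587 in mutants and 1628 to 2029 in wild-type mice, and of 9 markers of other striatal interneurons 1 fell.

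Genes with profiles close to those of 2 members were sought over the 8 mice, by the root mean square difference of log2 values centred on each gene's mean. Nearest to Kcnh3 were Mmp17 (0.064 log2 units), Ptpn5 (0.068) and Hpcal4 (0.069), and all 3 fell, by 0.72, 0.73 and 0.71 on the log2 scale. Nearest to Kcnc1 were As3mt (0.050), Ppp6c (0.068) and Csk (0.075), of which Ppp6c and Csk rose, by 0.38 and 0.37. This likeness includes the difference between the genotypes.

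Sexes were unevenly spread over the genotypes, with 3 females among the mutants and 1 among the wild-type mice. Within females (3 mutants against wild-type 161) the log2 differences were -0.78 for Kcnq5, -0.69 for Kcnh3, -0.46 for Kcna1 and -0.31 for Kcnq3. Within males (mutant 191 against 3 wild-type mice) they were -0.97 for Kcnq5, -0.87 for Kcnh3, -0.64 for Kcna1 and -0.42 for Kcnq3. The direction was the same in both sexes for these 4 genes. That had to be so, since every mutant lay below every wild-type mouse. No member passed in the interaction fit of genotype and sex, where their adjusted p lay at 0.969 or above and 0.0055% of all genes passed, and with 1 mouse in 2 of the 4 combinations that test is weak.

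**Figure D5:**
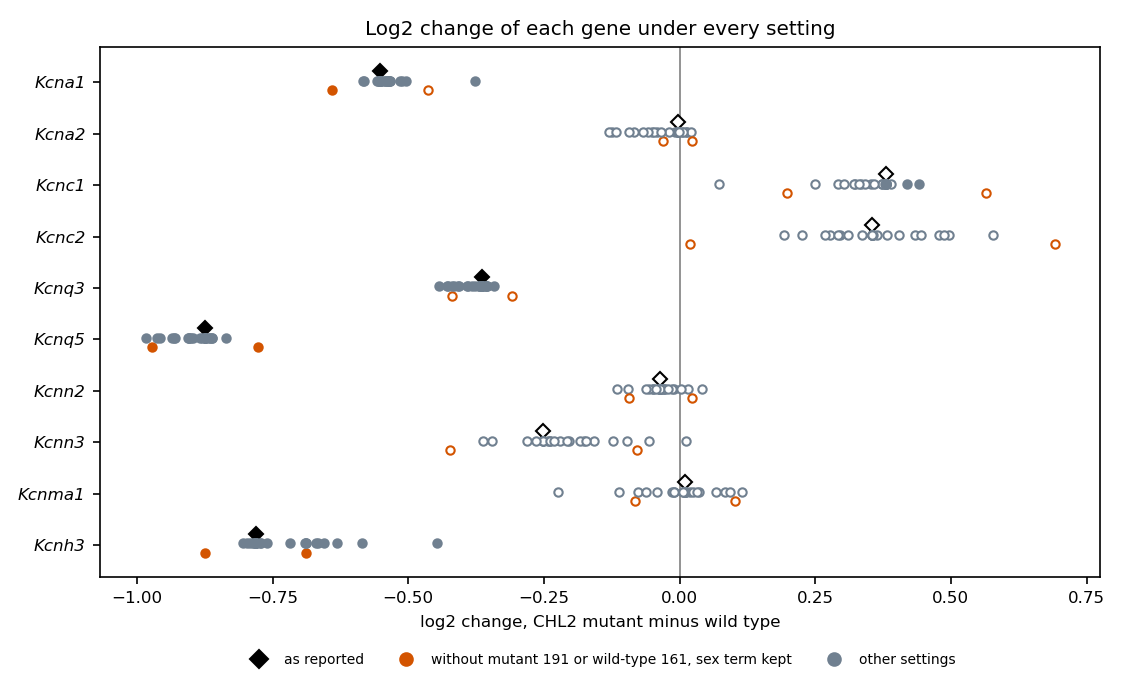
Log2 change of each gene (CHL2 mutant minus wild type) as reported (diamonds) and under each alternative setting (circles), orange for the fits without mutant 191 or wild-type 161 that keep the sex term, filled where the adjusted p is under 0.05. Kcnq5 and Kcnh3 are filled throughout, and Kcna2, Kcnn2, Kcnn3 and Kcnma1 straddle 0.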

How the data were processed

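Striatal RNA of 8 mice was measured on Affymetrix Mouse Genome 430 arrays, 1 array per mouse. The authors' deposited values are on the log2 scale and were made with RMA from the affy package, per the submitters' processing notes. No version is stated there, nor which arrays were normalized jointly. RMA forces the arrays to 1 distribution and compresses changes of dim probe sets. Of 45101 probe sets, 64 were controls and left out, 34945 had 1 gene symbol in the platform annotation, 932 carried more than 1 and 9160 had no entry.

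Each gene was taken as the brightest (by mean) of its probe sets with that symbol alone, in all 18193 genes. Genotype was tested with limma 3.58.1 in R 4.3.3 (lmFit and eBayes, no trend, not robust) with recorded sex as a term and Benjamini-Hochberg adjustment over all genes. Another fit ran over all 45037 non-control probe sets, and a further one held an interaction of genotype and sex. The script was tested on simulated data with 200 changed genes. Log2 changes are mutant minus wild type, adjusted for sex unless stated, and a call is an adjusted p under 0.05. Group means are not adjusted. Differences between 2 probe sets of the same array are described without a test and without adjustment for sex.

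The members, lists and tests were chosen with earlier results of these data known. Named genes are the 10 channel genes with every probe set, up to 3 called genes per related list, the closest relatives of each member, 6 marker genes, and the 3 genes nearest in profile to the member with the lowest p and to the one with the highest log2 change. Kcna5, Dlg4, Gnaq, Plcb4, Syt2 and Kit were named after their values were seen. Alternatives were no sex term, a variance prior with trend and robust options, repeated quantile normalization, centring on array medians, leaving out dimmer genes, a floor at a linear level of 32, array weights, no moderation, averaged probe sets, and each mouse left out with and without the sex term. Correction of scanner background and slide as a block could not be tried on these summarised values. The number of arrays limits the precision.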

Additional observations from a re-analysis of the deposited data

Results flagged for a closer look

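In all 29 probe sets, each group of 4 was screened for a mouse far from its 3 group mates, 58 groups in all, and 3 passed Dixon's 95% limit for the gap over the range. Chance flags about 1 group in 20. In the Kcnq5 probe set 1441071_at, mutant 141 read 6.78 and its group mates 7.27 to 7.32 (gap over range 0.9). In the same probe set wild-type 170 read 7.32 and its group mates 8.13 to 8.21 (0.915). In the dim Kcna2 probe set 1457911_at, wild-type 161 read 4.40 and its group mates 3.71 to 3.77 (0.908).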

How the results depend on the processing

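Over 249 repeats of the 10 log2 changes, 222 kept direction and side of the threshold, 3 lost a call, 4 gained one and 20 changed direction. Kcnq5 (-0.98 to -0.78) and Kcnh3 (-0.87 to -0.45) passed in all 25 repeats each. Those of Kcnh3 used its brightest probe set or the mean of its probe sets, and none used the reference-transcript probe set alone. The lost calls were those of Kcna1 without mutant 191 and of Kcnq3 without mutant 191 or wild-type 161, fits that leave 1 sex of a group with no mouse, and the gained ones were all of Kcnc1. Genes called numbered 2 without mutant 191 (Kcnq5 and Kcnh3), 3 without wild-type 161 and 4 or 5 with any other mouse left out. With a mouse left out, member probe sets called ranged from 4 (without 191, and also without 161) to 9 with the sex term (10 in fits that also left sex out), and related and partner genes from 5 (without 191) to 12 (13 where sex was left out too). No other setting moved these 3 counts by over 1.5 times, while the count over all genes was 2258, and was 1325 without moderation, 702 without mutant 191 and 864 without wild-type 161.

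The within-array differences were repeated under alternatives added after the data were seen, and those other than Kcnc1 minus Kcnc2 kept their direction. Direction changed for 4 members that were not called. Kcnma1 gave -0.014 with quantile normalization, -0.010 with array weights and -0.22 on averaged probe sets. Kcna2 gave 0.0051 with median centring and 0.011 with array weights, and Kcnn3, at -0.25 as reported, 0.012 at the floor. With 1 mouse left out, Kcna2 ranged from -0.041 to 0.023, Kcnn2 from -0.095 to 0.023 and Kcnma1 from -0.082 to 0.10. With sex left out as well, Kcnn2 gave 0.041 without mutant 141 and 0.0027 without wild-type 180, and Kcnma1 gave -0.063 without mutant 154, -0.0098 without mutant 191 and -0.11 without wild-type 170. Kcnc1 minus Kcnc2 was -0.057 as reported, ranged from -0.16 to 0.14 with 1 mouse left out and was -0.32 on averaged probe sets. The cause of these changes was not tested. Kcnn3 had no value without the dimmer genes. No paired analysis was possible because the groups share no mouse number. No value is given for signal over background, since the values hold no detection calls.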
